A study of Mus musculus with 10 samples.

Results

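Several of the 10 repressors described here are known to keep germline genes silent outside the germline. All 10 were followed through the in vitro differentiation of mouse primordial germ cell-like cells (PGCLC) by single-cell RNA-seq. They were chosen by name: the histone methyltransferases *Ehmt1*, *Ehmt2* and *Setdb1*, the KRAB zinc finger axis of *Trim28* and *Zfp57*, and the PRC1.6 subunits *L3mbtl2*, *Mga*, *Max*, *E2f6* and *Pcgf6*. All 10 were found, once each, among the 27998 genes of the table for the E14Tg2a line and among the 32285 genes of the table for the R1 line. E14Tg2a wild type cells gave 8 libraries: naive embryonic stem cells kept with MEK and GSK3β inhibitors and LIF (2i ESC), ESC in serum and LIF (S+L ESC), epiblast-like cells (EpiLC) at d1, d2 and d3, epiblast stem cells (EpiSC), and embryoid bodies (EB) at d2 and d4. EpiLC were induced with Activin A, bFGF and KSR, EpiSC were passaged in Activin A and bFGF, and EB were grown from d2 EpiLC with BMP4, SCF, LIF and EGF. R1 cells gave 2 libraries of d4 EB, from R1 WT cells and from Mll3/4 dCD cells, in which both MLL3 and MLL4, the methyltransferases that place H3K4me1 at enhancers, are catalytically deficient. How many clones the dCD line stands for is not given in the sources used here. Each condition was 1 library of 1 line, so stage or genotype and library cannot be told apart, no test was possible, and every interval below is an exact 95% interval that covers counting error only.

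As background, EHMT1 and EHMT2 (GLP and G9a) form the heterodimer that places H3K9me2, and SETDB1 places H3K9me3 at sites to which KRAB zinc finger proteins bring it through TRIM28. ZFP57 is such a zinc finger protein and is known for protecting the methylation of imprinted loci. PRC1.6 is a variant Polycomb complex that reaches the promoters of meiotic and other germline genes through MGA with its partner MAX, which read the E-box, and through E2F6, while L3MBTL2 and PCGF6 hold the complex together. Loss of several of these proteins in mouse ESC is known to derepress germline genes, whereas the known role of ZFP57 given here is at imprinted loci.

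Levels are UMIs (unique molecular identifiers, 1 for each captured transcript) summed over the cells of a library and scaled to a total of 1000000 UMIs (CPM). The libraries held 227 to 537 cells in E14Tg2a, with median depths of 21658 to 36750 UMIs per cell, and 1416 R1 WT and 1699 dCD cells, with medians of 13187.5 and 11751. The kits differed between the lines, so no level was compared across them. In the GENCODE annotation of GRCm38, *Zfp57* lies at chr17:37001163-37010635, *E2f6* at chr12:16810963-16839742 and *L3mbtl2* at chr15:81663889-81688315, all on the plus strand. *L3mbtl2*, *Setdb1* and *Trim28* each overlap a gene on the other strand (*Chadl*, *Cers2* and *Zbtb45*), and whether counting used strand is not given in the sources used here. A gene was called higher or lower where the ratio of CPM reached 1.5-fold with at least 50 UMIs over both groups, and all 10 repressors had that many in every comparison. Of other genes known to act with the repressors, 11 belonged to H3K9 methylation, 12 to PRC1.6 or to MAX networks, and 6 to DNA methylation. The germline list held 32 genes of meiosis, the piRNA pathway and early germ cells, chosen with earlier results of these data known.

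*Zfp57* varied most over the 8 E14Tg2a libraries. It stood at 81.3 CPM in 2i ESC (75.4 to 87.5), 46.7 in d1, 9.95 in d2 and 11.01 in d3 EpiLC, 9.64 in EpiSC, 62.5 in S+L ESC, 8.60 in d2 EB and 12.7 in d4 EB. The 2 ESC libraries and d1 EpiLC were high and the remaining 5 were low, with a gap of 3.68-fold (3.01 to 4.52) between d1 EpiLC and d4 EB. The 4 steps between neighbouring levels below that gap had intervals that included 1. The intervals of the levels at its ends, d4 EB (10.5 to 15.2 CPM) and d2 EB (7.16 to 10.2), did not overlap. Klf4, Klf2, Tbx3, Esrrb, Zfp42 and Tfcp2l1, which mark naive pluripotency, had a summed level of 1527 CPM in 2i ESC, 1471 in S+L ESC, 274.6 in d1, 43.4 in d2 and 91.9 in d3 EpiLC, 336.8 in d2 EB, 419.1 in d4 EB and 57.1 in EpiSC. Both EB libraries thus lay above d1 EpiLC for the summed naive list and below it for *Zfp57*. Single genes of the list did not all follow the sum. With cells thinned to equal depth, *Klf4* had means of 0.101 UMIs per cell in d1 EpiLC, 0.651 in d2 EB and 1.20 in d4 EB. *Zfp42* was lower in both EB libraries, like *Zfp57*, at 1.92, 0.613 and 0.879. *Esrrb* was lower there too, at 0.154, 0.0655 and 0.118. The sum thus does not set *Zfp57* apart from every naive marker. *Trim28*, the corepressor that KRAB zinc finger proteins recruit, was at 376.8 CPM in 2i ESC, 406.6 in d1, 341.0 in d2 and 202.7 in d3 EpiLC, 344.8 in EpiSC, 359.4 in S+L ESC, 194.5 in d2 EB and 213.6 in d4 EB. Its levels thus fell into a high set of 5 libraries and a low set of d3 EpiLC and both EB libraries, 1.597-fold apart (1.51 to 1.69) at the nearest pair.

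The partners *Ehmt1* and *Ehmt2* were both lowest in 2i ESC and then differed in course. *Ehmt1* was at 29.1 CPM in 2i ESC, 55.6 in d1, 66.5 in d2 and 58.3 in d3 EpiLC, 52.2 in EpiSC, 36.5 in S+L ESC, 56.9 in d2 EB and 65.2 in d4 EB, so that both ESC libraries lay below every other library. *Ehmt2* was at 23.3 CPM in 2i ESC, 46.01 in d1, 39.98 in d2 and 23.5 in d3 EpiLC, 31.0 in EpiSC, 40.4 in S+L ESC, 30.9 in d2 EB and 47.1 in d4 EB. The d3 EpiLC level of *Ehmt2* was 1.01-fold (0.845 to 1.21) that of 2i ESC, whereas that of *Ehmt1* stayed near the other EpiLC. *Setdb1* was at 32.8 CPM in 2i ESC, 29.7 in d1, 26.0 in d2 and 16.1 in d3 EpiLC, 24.5 in EpiSC, 26.1 in S+L ESC, 22.6 in d2 EB and 20.8 in d4 EB. Along its order from 2i ESC down to d4 EB no neighbouring pair differed beyond counting error, whereas d2 EpiLC over 2i ESC, which are not neighbours, was at 0.793-fold (0.671 to 0.937). The lowest level, in d3 EpiLC, lay below its neighbour d4 EB (1.29-fold, 1.06 to 1.57).

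**Figure D1:**
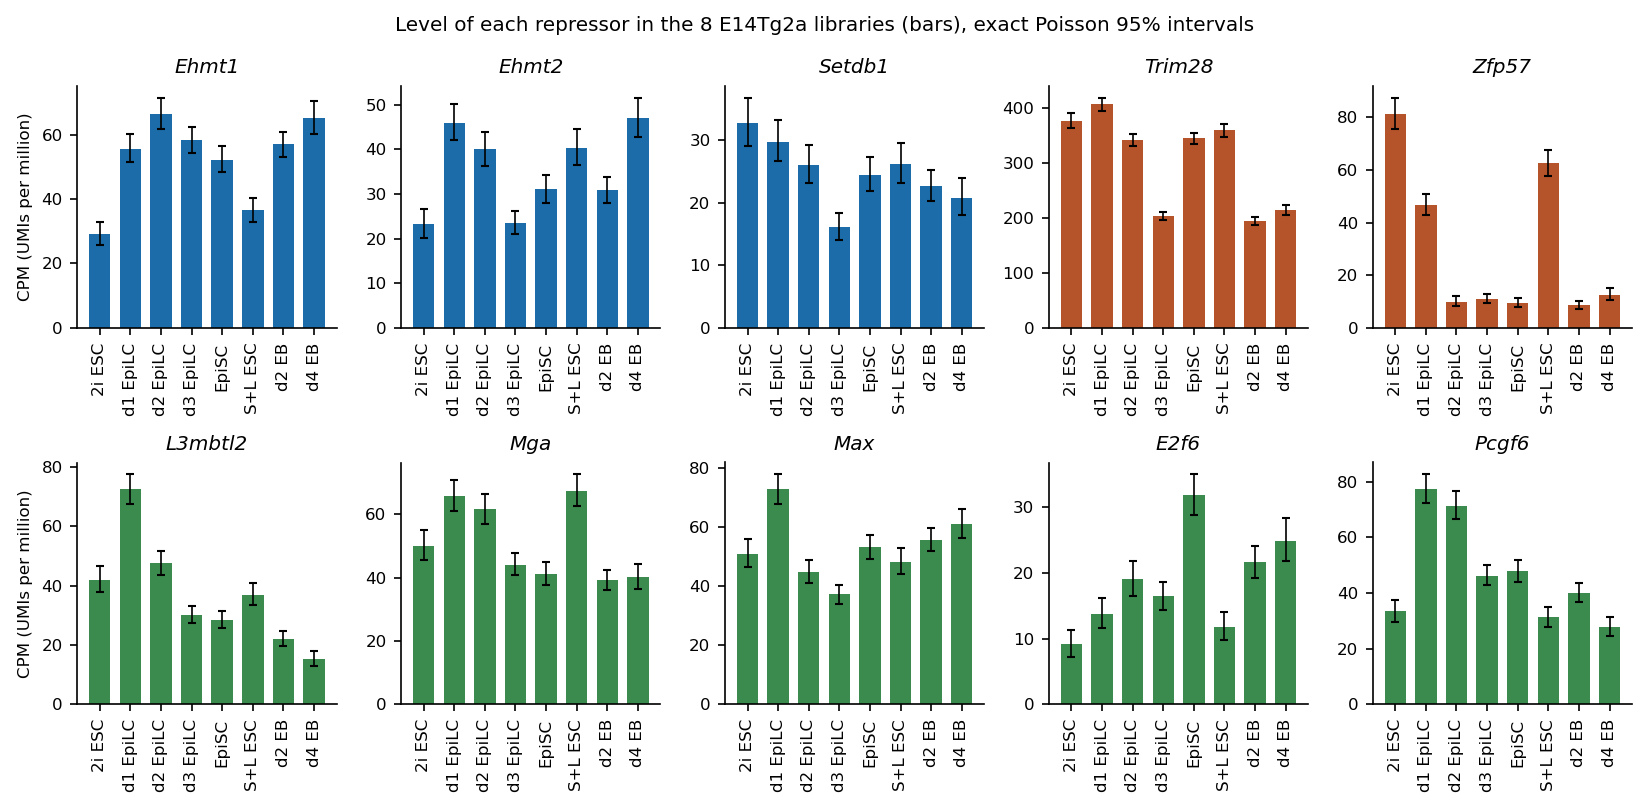
Level of each repressor (CPM, UMIs scaled to a library total of 1000000) in the 8 E14Tg2a libraries; bars are the level of 1 library and lines its exact Poisson 95% interval, with a separate axis from 0 for each gene. *Zfp57* drops from 81.3 CPM in 2i ESC to 9.95 in d2 EpiLC, while *E2f6* is low in 2i ESC (9.14) and S+L ESC (11.8) and highest in EpiSC (31.7).

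The PRC1.6 subunits did not share 1 course. *L3mbtl2* was at 42.0 CPM in 2i ESC, 72.4 in d1, 47.5 in d2 and 30.3 in d3 EpiLC, 28.5 in EpiSC, 37.0 in S+L ESC, 22.2 in d2 EB and 15.3 in d4 EB, a range of 4.73-fold (3.96 to 5.68) from d1 EpiLC to d4 EB. *E2f6*, the subunit that binds E2F sites, was lowest in 2i ESC, with 9.14 CPM in 2i ESC, 13.7 in d1, 19.0 in d2 and 16.4 in d3 EpiLC, 31.7 in EpiSC, 11.8 in S+L ESC, 21.6 in d2 EB and 24.9 in d4 EB. EpiSC lay above all other libraries for *E2f6*, by 1.28-fold (1.08 to 1.503) over d4 EB. At the low end, S+L ESC over 2i ESC was at 1.29-fold (0.963 to 1.73), not beyond counting error. *Pcgf6*, the Polycomb ring finger protein that defines the complex, was at 33.5 CPM in 2i ESC, 77.4 in d1, 71.4 in d2 and 46.2 in d3 EpiLC, 47.9 in EpiSC, 31.3 in S+L ESC, 40.1 in d2 EB and 27.9 in d4 EB. Its d1 and d2 EpiLC levels were the high ones and did not differ beyond counting error (1.08-fold, 0.983 to 1.20). *Mga* had the narrowest range, 1.72-fold (1.54 to 1.93), from 67.4 CPM in S+L ESC to 39.2 in d2 EB. *Max*, which also pairs with MYC, ranged 1.95-fold (1.75 to 2.19), from 72.8 CPM in d1 EpiLC to 37.3 in d3 EpiLC. In all, 8 of the 10 repressors ranged at least 2-fold over the libraries, beside 72.0% of the 9420 genes with at least 400 UMIs over the 8 libraries.

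On exit from the naive state, d1 EpiLC over 2i ESC, 5 repressors were called higher and 1 lower, where 27.1% of all 9653 genes compared were called higher and 15.6% lower. *Pcgf6* (2.31-fold, 2.02 to 2.65), *Ehmt2* (1.98-fold, 1.68 to 2.34), *Ehmt1* (1.91-fold, 1.65 to 2.22), *L3mbtl2* (1.72-fold, 1.52 to 1.95) and *E2f6* (1.503-fold, 1.14 to 2.00) were higher, and *Zfp57* was lower (0.575-fold, 0.512 to 0.645). The median log2 ratio of all genes was 0.18 here, and relative to it *Pcgf6* stood at 1.03, *Ehmt2* at 0.80, *Ehmt1* at 0.75, *L3mbtl2* at 0.60 and *E2f6* at 0.41. Of the H3K9 partners, 7 of 11 were called higher and 0 lower, led by *Pphln1*, a subunit of the HUSH complex (4.31-fold, 3.41 to 5.51), and *Cbx1*, which encodes an HP1 protein (2.19-fold, 2.07 to 2.31). Of the PRC1.6 partners, 3 were higher, among them *Tfdp2*, an E2F dimer partner (3.45-fold, 3.03 to 3.93), and 2 were lower, *Wdr5* (0.465-fold) and *Hdac2* (0.648-fold). The de novo DNA methyltransferase genes *Dnmt3a* (39.1-fold, 28.5 to 55.1) and *Dnmt3b* (11.8-fold, 10.5 to 13.3) had the largest ratios of the 3 partner lists.

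Over the whole course to d2 EpiLC, 4 repressors were called higher than in 2i ESC (30.9% of genes) and 1 lower (12.6%). *Ehmt1* (2.28-fold, 1.98 to 2.64), *Pcgf6* (2.13-fold, 1.86 to 2.45), *E2f6* (2.08-fold, 1.601 to 2.73) and *Ehmt2* (1.72-fold, 1.45 to 2.04) were higher, and *Zfp57* was at 0.122-fold (0.0993 to 0.150). The median of all genes was 0.26 in log2. From d1 to d2 EpiLC the calls were 0 higher (22.7% of genes) and 3 lower (14.1%), for *Zfp57* (0.213-fold), *Max* (0.617-fold) and *L3mbtl2* (0.656-fold), with a median of all genes of 0.10.

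From d2 to d3 EpiLC, 5 of the 10 repressors were called lower, where 13.9% of genes were, and 0 higher (14.1%). These were *Ehmt2* (0.588-fold, 0.508 to 0.679), *Trim28* (0.595-fold, 0.566 to 0.624), *Setdb1* (0.620-fold, 0.519 to 0.740), *L3mbtl2* (0.637-fold, 0.559 to 0.725) and *Pcgf6* (0.648-fold, 0.583 to 0.719). The intervals of 8 repressors, which cover counting error only, lay below 1, but the share of all genes with such an interval is not given. The median of all genes was -0.03 in log2. Several of the 5 lay near the threshold. With cells thinned to 20070 UMIs in 1 random draw, *Setdb1*, *Trim28* and *Pcgf6* passed it and *Ehmt2* (0.669-fold) and *L3mbtl2* (0.684-fold) did not. With the expected counts of that thinning, *Ehmt2*, *Setdb1* and *Trim28* passed and *L3mbtl2* (0.672-fold) and *Pcgf6* (0.668-fold) did not. Proliferation genes also differed between these libraries, with 3 of 7 lower and 1 higher and a summed level of 926.8 CPM in d2 and 663.7 in d3 EpiLC, and their part in the result was not tested. Among partners, 4 of 5 DNA methylation genes with enough UMIs were lower, including *Dnmt3b* (0.382-fold, 0.368 to 0.396) and *Dnmt3l* (0.141-fold, 0.106 to 0.185), but only 1 of 11 H3K9 partners, *Morc2a* (0.500-fold). In the germline list itself 12 of 19 genes were lower and 2 higher.

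EpiSC, which have lost most of their competence for the germline, had 3 repressors called higher than d3 EpiLC (23.6% of genes) and 0 lower (14%). *E2f6* was at 1.93-fold (1.64 to 2.28), *Trim28* at 1.70-fold (1.62 to 1.78) and *Setdb1* at 1.52-fold (1.27 to 1.81), with a median of all genes of 0.16 in log2. Against d2 EpiLC, *E2f6* was called higher (1.67-fold, 1.41 to 1.98; 22.8% of genes) and *L3mbtl2* lower (0.600-fold, 0.524 to 0.687; 12.7%), with a median of 0.11. The germline list was at its lowest in EpiSC, at 21.2 CPM in sum (18.8 to 23.9) with a UMI of 12 of its 32 genes. It stood at 146.6 CPM in 2i ESC, 241.9 in d1, 238.6 in d2 and 196.4 in d3 EpiLC and 395.9 in S+L ESC. Of the 10 repressors only *E2f6* had a level in EpiSC outside its range in the other 7 libraries, and it was above that range.

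S+L ESC carried more germline transcripts than 2i ESC, with 17 of 19 list genes called higher, among them *Stra8*, which was at 17.4 CPM against 0.228. Of the repressors only *Ehmt2* was called higher (1.73-fold, 1.46 to 2.06; 18.5% of genes) and 0 lower (11.2%). The intervals of 7 repressors lay wholly between 1/1.5 and 1.5, and the share of all genes with such an interval is not given. Markers of other states moved in the same comparison, with the 2-cell list at 21.3 against 0 CPM (no UMI, at most 0.421), gut endoderm genes at 26.2 against 3.65, extraembryonic ectoderm genes at 15.3 against 5.595 and extraembryonic mesoderm genes at 18.0 against 9.25, and their part was not tested.

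EB cells outside the PGCLC list had lower levels of 4 repressors than the d2 EpiLC they came from at d2 (21.5% of genes lower), and 0 were higher (27.7%). *L3mbtl2* fell to 0.395-fold (0.336 to 0.463), *Pcgf6* to 0.523-fold (0.464 to 0.588), *Trim28* to 0.548-fold (0.519 to 0.577) and *Mga* to 0.576-fold (0.509 to 0.652). In the same cells 16 of 16 germline list genes with enough UMIs were lower, as were 3 of 5 DNA methylation genes and 5 of 7 proliferation genes, and their part was not tested.

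PGCLC were taken as the 135 cells that the study lists, 91 in d2 EB and 44 in d4 EB. The study found those cells by clustering and chose the clusters by enrichment of core genes of primordial germ cells (PGC). Their values are thus a description, and d2 and d4 are stages and not replicates. High PGC markers follow from that choice and do not test the label. *Prdm1*, *Prdm14*, *Tfap2c*, *Dppa3*, *Nanos3* and *Dnd1* summed to 455.1 CPM against 43.2 in the other cells at d2, and to 406.8 against 51.7 at d4. The naive genes were higher as well, at 634.8 against 262.2 CPM at d2 and 1221 against 320.2 at d4. Extraembryonic mesoderm genes were lower, at 112.5 against 1129 CPM and 16.1 against 610.6.

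At d2, 3 repressors were higher in PGCLC (10.7% of genes) and 2 lower (22.3%). At d4, 2 were higher (12.1%) and 2 lower (46.9%). *L3mbtl2* was at 35.8 CPM in PGCLC and 18.8 in other cells at d2 (1.91-fold, 1.496 to 2.42), and at 36.0 and 12.8 at d4 (2.83-fold, 1.90 to 4.12). Its level in PGCLC was thus alike on both days, and the other cells were the lower ones. *Zfp57* was at 15.3 and 6.91 CPM at d2 (2.22-fold, 1.51 to 3.23) and at 25.6 and 11.1 at d4 (2.30-fold, 1.44 to 3.56). *E2f6* went the other way, with 13.98 CPM in PGCLC and 23.5 in other cells at d2 (0.596-fold, 0.418 to 0.829), and 5.69 and 27.3 at d4 (0.209-fold, 0.0758 to 0.461), the latter from 6 UMIs in 44 cells. *Ehmt1* was lower on both days, at 37.2 against 61.9 CPM (0.601-fold, 0.486 to 0.735) and 42.7 against 68.0 (0.628-fold, 0.453 to 0.851), whereas its partner *Ehmt2* was at 1.03-fold (0.815 to 1.30) and 0.896-fold (0.644 to 1.22). *Mga* was higher at d2, at 54.2 against 35.4 CPM (1.53-fold, 1.27 to 1.84).

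The median log2 ratio of all genes was -0.13 at d2 and -0.51 at d4. Relative to that median, *E2f6* stood at -1.75 at d4 and *Ehmt1* at -0.16, while *L3mbtl2* stood at 2.01, *Zfp57* at 1.72, *Pcgf6* at 0.93, *Trim28* at 0.84, *Max* at 0.80 and *Setdb1* at 0.66. With all genes centred in this way, 6 repressors were higher and 1, *E2f6*, was lower at d4, and *Mga* and *Ehmt2* changed sign. The shares of all genes given above are without centring and none is given with it, so these counts have no background. Of the partners, *Suv39h1*, an H3K9 methyltransferase gene, was at 20.5 against 57.6 CPM at d2 (0.355-fold, 0.268 to 0.463) and 20.9 against 151.6 at d4 (0.138-fold, 0.0859 to 0.209). *Yaf2*, which encodes a PRC1 subunit, was at 27.3 against 80.7 CPM (0.338-fold, 0.266 to 0.425) and 19.9 against 135.5 (0.147-fold, 0.0906 to 0.226). Both were high in the other EB cells and low in PGCLC.

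**Figure D2:**
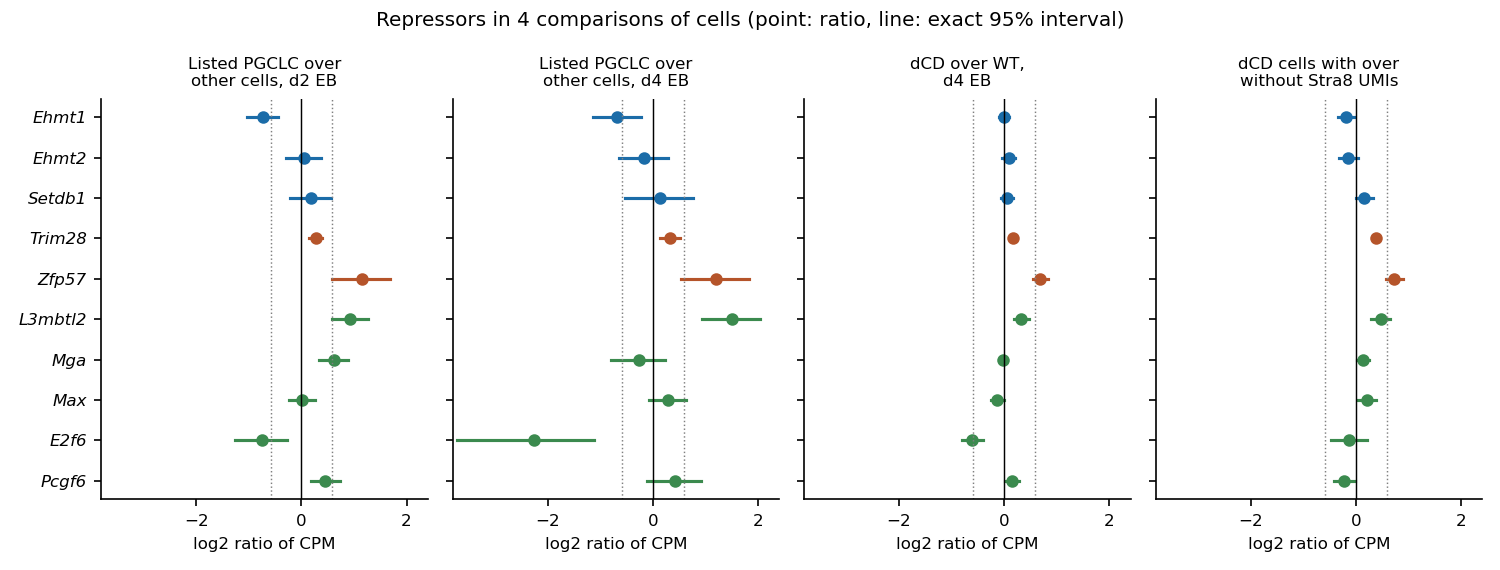
Log2 ratio of CPM of each repressor in 4 comparisons of cells; points are ratios, lines exact 95% intervals and dotted lines 1.5-fold, in blue for the H3K9 methyltransferases, orange for *Trim28* and *Zfp57* and green for PRC1.6. *Zfp57* lies past 1.5-fold in all 4 panels, *E2f6* is at 0.209-fold in d4 PGCLC, and in dCD over WT 8 intervals lie wholly inside 1.5-fold.

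In d4 EB of the R1 line, germline genes were far higher in dCD than in WT cells. Of 24 list genes with enough UMIs, 22 were called higher and 0 lower, with a median ratio of 9.93-fold, and the list summed to 411.8 CPM (403.6 to 420.2) against 53.7 (50.6 to 57.0). *Stra8*, which drives entry into meiosis, had 1837 UMIs in dCD cells and 5 in WT cells (80.3 against 0.243 CPM, 330.5-fold, 141.3 to 1019). *Tuba3a*, a testis tubulin, was at 46.9 against 0.729 CPM (64.3-fold, 38.8 to 115.4), *Mov10l1*, a piRNA helicase, at 11.4 against 0.340 (33.7-fold, 16.1 to 84.6), *Slc25a31*, an ADP/ATP carrier of germ cells, at 7.51 against 0.243 (30.9-fold, 13.0 to 96.5), and *Taf7l*, a germ cell TFIID subunit, at 7.30 against 0.437 (16.7-fold, 8.58 to 37.1). *Tuba3a* has a near-identical copy, *Tuba3b*, so its count is uncertain.

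The promoters of these 5 genes are shown because PRC1.6 reads such sites through MGA with MAX and through E2F6. Each is the 250 bases before the RefSeq start on GRCm38.p6, 5′ to 3′ on the gene's strand, with matches to the E-box CACGTG and to the E2F motif TCCCGC in capitals, both strands searched. The windows are chr6:34920698-34920947 for *Stra8*, chr6:125286082-125286331 for *Tuba3a*, chr15:88982744-88982993 for *Mov10l1*, chr3:40708621-40708870 for *Slc25a31* and chrX:134476491-134476740 for *Taf7l*, with *Tuba3a* and *Taf7l* on the minus strand.
Stra8: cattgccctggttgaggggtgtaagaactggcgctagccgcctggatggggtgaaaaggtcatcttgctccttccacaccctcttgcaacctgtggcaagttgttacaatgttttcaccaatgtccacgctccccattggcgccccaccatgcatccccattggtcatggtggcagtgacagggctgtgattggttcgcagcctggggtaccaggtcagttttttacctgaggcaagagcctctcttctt
Tuba3a: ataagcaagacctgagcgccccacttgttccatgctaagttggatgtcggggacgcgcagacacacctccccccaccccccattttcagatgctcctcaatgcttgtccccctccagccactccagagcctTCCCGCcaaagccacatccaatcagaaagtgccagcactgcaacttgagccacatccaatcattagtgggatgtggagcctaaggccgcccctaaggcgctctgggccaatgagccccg
Mov10l1: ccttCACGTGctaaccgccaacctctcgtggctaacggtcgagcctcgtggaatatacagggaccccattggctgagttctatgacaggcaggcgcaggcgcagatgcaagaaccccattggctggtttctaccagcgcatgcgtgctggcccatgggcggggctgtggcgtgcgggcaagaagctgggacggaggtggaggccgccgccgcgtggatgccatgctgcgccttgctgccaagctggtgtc
Slc25a31: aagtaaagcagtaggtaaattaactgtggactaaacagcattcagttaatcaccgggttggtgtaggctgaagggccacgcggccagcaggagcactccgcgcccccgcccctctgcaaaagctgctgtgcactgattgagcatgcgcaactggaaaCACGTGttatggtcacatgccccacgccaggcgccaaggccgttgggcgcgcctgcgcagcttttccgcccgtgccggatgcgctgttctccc
Taf7l: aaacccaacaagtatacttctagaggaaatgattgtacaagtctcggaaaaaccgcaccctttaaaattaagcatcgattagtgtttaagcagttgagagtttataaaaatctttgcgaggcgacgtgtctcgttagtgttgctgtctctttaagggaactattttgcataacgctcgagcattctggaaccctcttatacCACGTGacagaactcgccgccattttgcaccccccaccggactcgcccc
The E-box lies 246 bases before the start in *Mov10l1*, 93 in *Slc25a31* and 49 in *Taf7l*, and the E2F motif 119 bases before it in *Tuba3a*, counted to the first base of the match. The *Stra8* window holds neither string. Over the list, 29 of 32 genes had a promoter in the RefSeq table, 36 windows in all, and 17 of these (47.2%) held the E-box, beside 6.02% of all 32851 windows. The E2F motif was in 11 of the 36 (30.6%), beside 16.9% of all windows, and both were in 5 (13.9%), beside 1.45%. Some genes had overlapping windows: those with an E-box belonged to 13 genes, those with the E2F motif to 10 and those with both to 4. The list was chosen with earlier results of these data known, so the shares describe this list only. The 11 list genes with an E-box and enough UMIs were all called higher in dCD, from 3.71-fold to 33.7-fold with a median of 10.8, and of the 12 without one 10 were called higher, from 1.33-fold to 330.5-fold with a median of 7.32. *Stra8* and *Tuba3a*, which have the 2 largest ratios, are among those without an E-box. A match is a string of letters and binding was not measured here.

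Over whole libraries, most repressors differed by less than 1.5-fold between dCD and WT. *Zfp57* was called higher (17.4% of genes) and *E2f6* lower (12.6%), and the intervals of the other 8 lay wholly between 1/1.5 and 1.5. The share of all genes with such an interval is not given. *Ehmt1* was at 76.4 CPM in dCD and 76.6 in WT cells (0.997-fold, 0.931 to 1.07), *Ehmt2* at 53.7 and 50.5 (1.06-fold, 0.977 to 1.15) and *Setdb1* at 60.6 and 58.5 (1.04-fold, 0.958 to 1.12). *Trim28* was at 327.6 and 291.1 CPM (1.13-fold, 1.09 to 1.16). In PRC1.6, *L3mbtl2* was at 44.1 and 35.2 CPM (1.25-fold, 1.14 to 1.38), *Mga* at 120.9 and 123.3 (0.980-fold, 0.928 to 1.03), *Max* at 51.0 and 55.8 (0.914-fold, 0.841 to 0.992) and *Pcgf6* at 45.8 and 41.5 (1.10-fold, 1.01 to 1.21). The 2 exceptions were *Zfp57*, at 51.7 and 32.1 CPM (1.61-fold, 1.46 to 1.77), and *E2f6*, at 15.7 and 24.0 (0.655-fold, 0.571 to 0.752). *E2f6* lay near the threshold: it passed with the expected counts of cells thinned to 6831 UMIs (0.654-fold) and did not in 1 random draw of that thinning (0.668-fold) or with each cell given equal weight. *Zfp57* was at 1.55-fold with the expected counts and 1.53-fold in the draw. A separate draw at the same depth, used for the spread over cells, gave means of 0.321 UMIs per dCD cell and 0.223 per WT cell, which is below 1.5-fold.

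**Figure D3:**
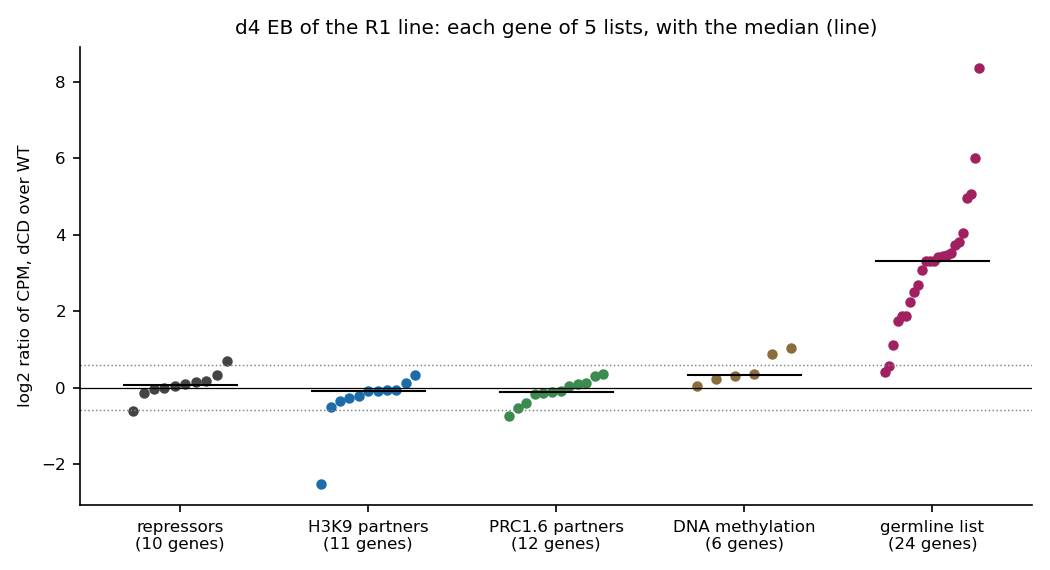
Log2 ratio of CPM in dCD over R1 WT d4 EB for each gene with at least 50 UMIs in 5 lists, sorted within a list; points are genes, short lines list medians and dotted lines 1.5-fold. The 10 repressors lie between 0.655-fold and 1.61-fold, while the 24 germline genes reach 330.5-fold with a median of 9.93-fold.

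The make-up of the EB differed between the genotypes, and the part of this in both exceptions was not tested. A UMI of the naive markers *Klf4*, *Esrrb* or *Zfp42* was found in 58.9% of dCD cells (56.5 to 61.3) and 34.5% of WT cells (32.1 to 37.1), and one of the extraembryonic mesoderm list in 46.6% (44.2 to 49.0) and 85.7% (83.7 to 87.4). These shares were not thinned and dCD cells were the shallower. After thinning to 6831 UMIs, *Zfp42* had a UMI in 38.6% of dCD (36.1 to 41.1) and 15.2% of WT cells (13.4 to 17.2). Of the whole naive list 5 of 6 genes were called higher (747.4 against 521.6 CPM in sum), of the extraembryonic mesoderm list 4 of 5 lower (224.1 against 944.1), and of the 2-cell list, a state of ESC with early embryonic transcripts, 4 of 4 with enough UMIs higher (22.2 against 0.0486 CPM). Extraembryonic ectoderm genes were at 215.0 against 21.5 CPM in sum (9.99-fold, 9.06 to 11.03) and gut endoderm genes at 21.0 against 104.0 (0.202-fold, 0.183 to 0.223). Among cells without a naive marker UMI, *Zfp57* was at 20.7 CPM in dCD and 19.6 in WT (1.06-fold, 0.861 to 1.30). Among cells with one it was at 68.3 and 50.0 (1.37-fold, 1.22 to 1.53). Both values were nearer to 1 than in all cells, and 0 repressors passed 1.5-fold in either class. Within each class the make-up still differed between the genotypes. With a naive marker UMI, the extraembryonic mesoderm list was at 156.4 CPM in dCD and 676.7 in WT, and the PGC list at 135.0 and 193.1. Without one, the extraembryonic mesoderm list was at 350.9 and 1132 CPM. *E2f6* was below 1.5-fold in both classes with intervals below 1, at 19.0 against 27.9 CPM without a naive marker UMI (0.680-fold, 0.558 to 0.827) and 14.01 against 18.5 with one (0.757-fold, 0.613 to 0.937). Among cells without a UMI of the extraembryonic mesoderm list, 908 dCD and 203 WT cells, *E2f6* was at 0.844-fold (0.611 to 1.18) and *Zfp57* at 1.58-fold (1.28 to 1.97). There *L3mbtl2* (0.809-fold, 0.680 to 0.966), *Pcgf6* (0.789-fold, 0.666 to 0.938) and *Ehmt1* (1.31-fold, 1.10 to 1.56) lay on the other side of 1 than over whole libraries. *Trim28* (0.937-fold, 0.875 to 1.004) and *Setdb1* (0.906-fold, 0.768 to 1.07) did so too, with intervals that included 1. *Max* was at 0.707-fold (0.603 to 0.833) and *Mga* at 0.814-fold (0.732 to 0.907). These cells were unlike in make-up, with the PGC list at 111.4 CPM in dCD and 457.9 in WT. The germline list stayed apart in every class, at 219.3 against 26.9 CPM without a naive marker UMI and 514.7 against 91.9 with one.

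The partner genes likewise showed few calls. Of 11 H3K9 partners 0 were higher and 1 lower, of 12 PRC1.6 partners 0 and 1, and of 6 DNA methylation genes 2 and 0. The one lower H3K9 partner was *Suv39h1*, which overlaps the antisense gene *Gm14820*, at 42.7 CPM in dCD and 245.0 in WT (0.174-fold, 0.163 to 0.187). It was lower also among cells without a naive marker UMI, at 63.4 against 310.7 CPM, and among those with one, at 31.6 against 151.3. *Yaf2* was at 56.0 against 93.8 CPM (0.597-fold, 0.556 to 0.642), *Dnmt3b* at 57.0 against 30.7 (1.85-fold, 1.69 to 2.04) and *Dnmt3l* at 13.5 against 6.51 (2.07-fold, 1.69 to 2.56).

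Within the dCD library, cells were then split by *Stra8*. A UMI of it was found in 513 of 1699 dCD cells (30.2%) and in 5 of 1416 WT cells (0.353%), and after thinning to 6831 UMIs in 24.7% (22.5 to 26.9) and 0.0732% (0.00185 to 0.407). The WT share serves as the background. Median depths were 12538 UMIs in cells with *Stra8* and 11496.5 in cells without. The germline list was at 794.2 CPM in cells with *Stra8* and 230.7 in cells without, but the split itself places all *Stra8* UMIs in the first group. Without *Stra8* the list was at 544.5 against 230.7 CPM, with 18 of 22 genes called higher, and cells without a *Stra8* UMI carried more than WT cells, at 53.5 CPM.

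*Zfp57* was the only repressor called higher in cells with *Stra8* (9.31% of genes), and 0 were lower (15.8%). It was at 71.0 CPM (65.0 to 77.3) in cells with *Stra8* and 42.6 (39.4 to 45.995) in cells without (1.67-fold, 1.48 to 1.87). By the number of *Stra8* UMIs, it was at 42.6 CPM with 0, 56.0 (46.3 to 67.0) with 1, 76.2 (65.4 to 88.2) with 2 or 3 and 77.7 (67.9 to 88.5) with 4 or more. The levels of the 2 highest classes did not differ beyond counting error. *L3mbtl2* was at 54.5 against 39.2 CPM (1.39-fold, 1.22 to 1.58) and *Trim28* at 388.9 against 298.6 (1.30-fold, 1.24 to 1.36). *Pcgf6* was at 41.3 against 48.0 CPM (0.862-fold, 0.752 to 0.986) and *Ehmt1* at 70.0 against 79.4 (0.882-fold, 0.794 to 0.978). *E2f6*, the one repressor called lower in dCD, was at 14.8 against 16.2 CPM (0.917-fold, 0.725 to 1.15), and its 4 classes by *Stra8* UMIs lay between 12.9 and 16.6. The interval of the ratio includes 1 and leaves room for a difference of either sign. *Ehmt2* (0.907-fold), *Setdb1* (1.12-fold), *Mga* (1.10-fold) and *Max* (1.16-fold) lay between these.

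**Figure D4:**
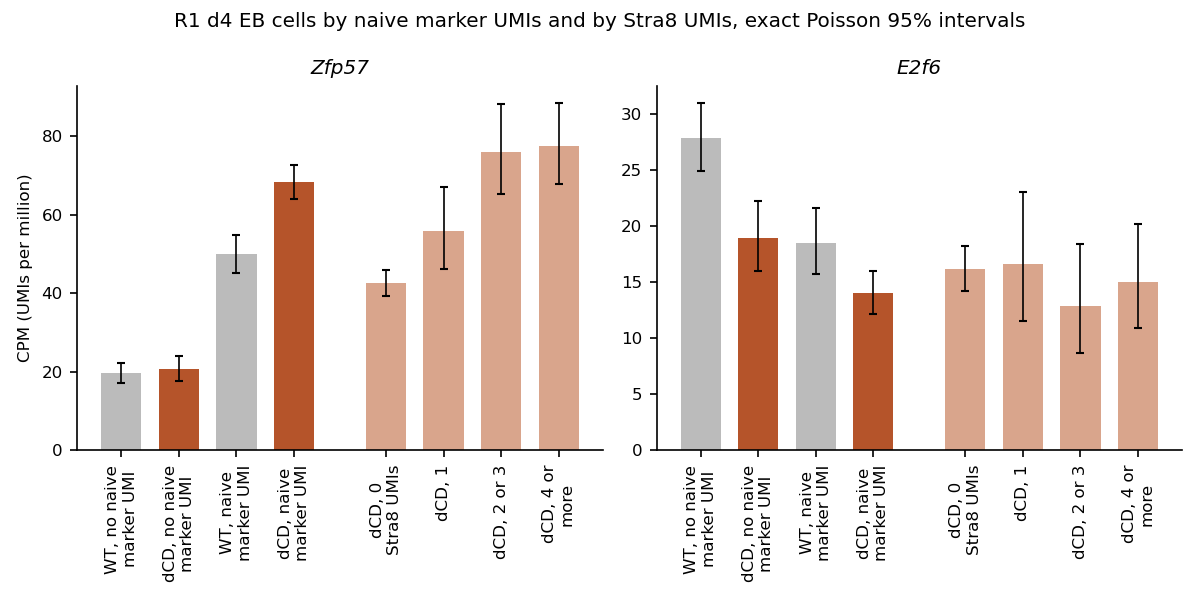
Level of *Zfp57* and *E2f6* (CPM) in R1 d4 EB cells, split by genotype and by UMIs of *Klf4*, *Esrrb* or *Zfp42* (left 4 bars: WT grey, dCD orange) and, in dCD cells, by the number of *Stra8* UMIs (right 4 bars); lines are exact Poisson 95% intervals. *Zfp57* is at 19.6 and 20.7 CPM in WT and dCD cells without a naive marker UMI and climbs to 77.7 with 4 or more *Stra8* UMIs, whereas *E2f6* stays between 12.9 and 16.6 across the *Stra8* classes.

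Naive markers were also more frequent among cells with *Stra8*, where 81.1% had a naive marker UMI (77.4 to 84.4) against 49.3% (46.4 to 52.2), and 26.1% against 55.4% had one of the extraembryonic mesoderm list. The naive list was at 1031 against 613.0 CPM in sum. Among cells with a naive marker UMI *Zfp57* was at 77.3 against 61.7 CPM (1.25-fold, 1.11 to 1.42), and among cells without one at 32.6 against 18.9 (1.72-fold, 1.14 to 2.53), the latter from 97 cells with *Stra8*. Among cells without a UMI of the extraembryonic mesoderm list the ratio was 1.16-fold (0.989 to 1.37), and 0 repressors passed 1.5-fold.

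Over single cells, thinned to 15374 UMIs in E14Tg2a and 6831 in R1, the variance was set against the mean, which it equals where sampling alone acts. Of the 100 pairs of repressor and library, 5 had a variance at least 1.5 times the mean, against 32 without thinning, where differences in depth add to the variance. The share of all genes past this cutoff is not given, so these counts have no background. Thinning to few UMIs also brings the ratio nearer to 1. In the same way a gene with a low mean has a ratio nearer to 1 at a like relative spread. A fixed cutoff thus favours genes with many UMIs. The 5 were *Trim28* in 2i ESC (1.59 times) and S+L ESC (1.61) and *Zfp57* in d2 EB (1.505), R1 WT d4 EB (1.51) and dCD d4 EB (1.69). For comparison, the naive marker *Zfp42* reached 4.62 times and *Stra8* 3.13 times in dCD d4 EB. Their means there were 1.37 and 0.577 UMIs per cell, against 0.321 for *Zfp57*. *Trim28* had means of 6.05 in 2i ESC and 5.79 in S+L ESC. With means this unlike, the ratios do not rank the genes by spread. After thinning, a UMI of *Zfp57* was found in 69.1% of 2i ESC (62.5 to 75.1), 49.1% of d1 EpiLC (42.9 to 55.2), 13.4% of d2 EpiLC (9.68 to 18.0) and 54.3% of S+L ESC (48.4 to 60.1), beside 14.7% of EpiSC.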

How the data were processed

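Single-cell RNA-seq of 8 E14Tg2a and 2 R1 libraries was used. The authors deposited raw UMI counts per gene and cell, made with Cell Ranger on mm10 per the submitters' notes. The E14Tg2a table had been aggregated to equal mapped reads, and the R1 table held cells with at least 2000 genes (fewest found, 2006). Cells were assigned to libraries by the barcode suffixes that the study lists. All 135 listed PGCLC were found. Symbols came from GENCODE for 27645 of 27998 identifiers. Of 2774 barcode sequences in E14Tg2a, 8 occurred in more than 1 library, and of 3115 in R1, 0. One barcode, 1 cell, was not of 16 bases.

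Counts were summed over cells and divided by all UMIs of the group (CPM). Totals were 8757170 to 22887974 UMIs per library. Poisson intervals of levels, conditional binomial intervals of ratios and Clopper-Pearson intervals of shares were exact, at 95%. A call needed 1.5-fold and 50 UMIs over both groups. With 1 library per condition no p-value was computed. Beside the 10 repressors, at most 5 partner or germline genes past that threshold each way could be named per comparison. The members and lists were chosen with earlier results of these data known. For the spread over cells and the shares, cells were thinned to the 10th percentile of depth of the shallowest library and shallower cells were left out (4 to 37 per E14Tg2a library, 50 WT and 170 dCD cells).

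Alternatives were another scaling, cells weighted equally, thinned cells (1 random draw, and the expected counts with no draw), a fold of 2, no minimum, subsets of cells, and cells without doublets, which were otherwise kept. Scrublet called 0.441% (2i ESC) to 7.61% (d2 EpiLC) of E14Tg2a cells, and 0.706% of R1 WT and 0.647% of dCD cells. Since the 2i ESC share and both R1 shares are low, leaving out called doublets says little there. Ratios and intervals were tested on simulated data. Promoters came from RefSeq. Python 3.11.15, numpy 2.4.6, scipy 1.17.1, pandas 2.3.3, matplotlib 3.10.9 and scanpy 1.11.5 were used.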

Additional observations from a re-analysis of the deposited data

Results flagged for a closer look

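*Mga* stood out because its ratio in listed PGCLC over other EB cells pointed in opposite directions on the 2 days, at 1.53-fold at d2 and 0.834-fold at d4. The difference was not tested. The d4 value came from 36 UMIs in PGCLC, its interval of 0.574 to 1.18 included 1, and relative to the median of all genes its log2 ratio was 0.25.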

How the results depend on the processing

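No paired analysis was possible because each condition was 1 library, and for the same reason no replicate could be left out. No repressor called in a comparison changed direction under any alternative run there, but several that were not called did. In dCD over WT these included *L3mbtl2*, *Pcgf6*, *Trim28*, *Setdb1* and *Ehmt1* among cells with no extraembryonic mesoderm UMI. *Ehmt2* (0.951-fold) did so among cells with no naive marker UMI. In the *Stra8* split without naive markers, those that changed side included *Ehmt1* (1.05-fold) and *E2f6* (1.07-fold), with intervals that included 1. With a fold of 2, the counts of repressors became 1 higher and 0 lower in d1 EpiLC over 2i ESC, 1 lower in d2 over d1 EpiLC, 0 lower in d3 over d2 EpiLC, 0 higher in EpiSC over d3 EpiLC and in S+L over 2i ESC, 0 and 0 in EpiSC over d2 EpiLC, 1 lower in d2 EB cells over d2 EpiLC, 1 higher and 0 lower in d2 PGCLC, 1 lower in d4 PGCLC, 0 and 0 in dCD over WT, and 0 higher in cells with *Stra8*. With median of ratios scaling, 2 were lower in d2 EpiLC over 2i ESC, 3 lower in EpiSC over d2 EpiLC, and 6 higher and 1 lower in d4 PGCLC. The shares of all genes given above are for 1.5-fold without this scaling. The counts at a fold of 2 and with this scaling thus have no such share beside them. Without called doublets, 2 were lower in EpiSC over d2 EpiLC. With 1 random draw of thinned cells, 3 were lower in d3 over d2 EpiLC and 0 in dCD over WT, with the expected counts of that thinning 3 and 1, and with cells weighted equally 0 were lower in dCD over WT. In dCD over WT, 0 were higher and 0 lower among cells with no PGC list UMI, among those with no naive marker UMI and among those with one, and 0 were lower among cells with no extraembryonic mesoderm UMI. In cells with over without *Stra8*, 0 were higher among cells with a naive marker UMI and among those with no extraembryonic mesoderm UMI. The expected counts, the subsets with a naive marker UMI or no extraembryonic mesoderm UMI, and the *Stra8* split without naive markers, were chosen after seeing the data. Without thinning, 32 in place of 5 pairs of repressor and library had a variance at least 1.5 times the mean, with no share of all genes given. The *Zfp57* call in dCD over WT held in that draw and with expected counts, and was below 1.5-fold in a separate draw. The cause of these shifts was not tested. Depth limits *E2f6* in d4 PGCLC most, with 6 UMIs.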
